A study of Saccharomyces cerevisiae with 18 samples.

Results

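The 10 genes described here, TPS1, TPS2, TPS3, TSL1, NTH1, GSY1, GSY2, GLC3, GPH1 and GDB1, encode the enzymes and subunits that make and break down trehalose and glycogen in budding yeast (Saccharomyces cerevisiae). They were chosen by function, 5 for trehalose and 5 for glycogen, out of 7130 genes in the count table. Earlier results of these data were known when they were chosen. All 10 passed the filter on low counts, as did 5719 genes in all. Messenger RNA came from log-phase cultures in YPD, a rich glucose medium, at 25 °C, and each of the 4 strains gave 3 libraries from separate RNA isolations. The strains are fes1Δ (CAY1221, labelled as deleted for FES1), fes1ΔS (CAY1290) and fes1ΔL (CAY1256), labelled as lacking the S or the L form of the gene, and WT (CAY1015). FES1 encodes a nucleotide exchange factor that releases substrate from Hsp70 chaperones. Each strain is represented by 1 strain number, so a difference between strains cannot be told apart from a difference between isolates. The series also holds 6 libraries from cells heat-shocked at 37 °C for 30 min, which are not analysed here because their columns carry names that match no label.

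Trehalose is a disaccharide that yeast accumulates under heat and in stationary phase, when it helps to stabilise proteins, and glycogen is its branched glucose store. Both start from glucose 6-phosphate and UDP-glucose. Trehalose is made by a complex of the synthase Tps1, the phosphatase Tps2 and the regulatory subunits Tps3 and Tsl1, and the trehalase Nth1 splits it into glucose. Glycogen is elongated by the synthases Gsy1 and Gsy2 and branched by Glc3, while the phosphorylase Gph1 and the debranching enzyme Gdb1 take it apart. In growing cells both stores are small, and many genes of the 2 pathways are known targets of the stress activators Msn2 and Msn4.

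Total counts ran from 7608550 to 10246711 per library. FES1 itself went against the label of the deletion strain, with 159 ± 8.59 CPM (read counts scaled by library total, with the TMM correction for depth; SD, n = 3) in the libraries labelled fes1Δ, 1434 ± 80.1 CPM in fes1ΔS, 146 ± 3.27 CPM in fes1ΔL and 158 ± 7.48 CPM in WT. The marker gene URA3 averaged 219 ± 5.66 CPM in libraries labelled fes1Δ, against strain means of at most 0.142 CPM elsewhere. For scale, HSP104, the heat-inducible disaggregase, stood at 2967 ± 36.2 CPM in libraries labelled fes1Δ, 2150 ± 98.9 CPM in fes1ΔS, 530 ± 14.6 CPM in fes1ΔL and 539 ± 40.6 CPM in WT. Differences given below for fes1Δ are those of the libraries so labelled.

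The storage genes moved far less than HSP104. In the libraries labelled fes1Δ and in fes1ΔS, 3 of the 10 genes rose over WT, and in both cases they were the glycogen genes GSY2, GLC3 and GPH1. Over all tested genes, 5.72% rose in the libraries labelled fes1Δ and 3.22% in fes1ΔS. Not all of these calls held without WT replicate 2. GLC3 alone kept its call in the libraries labelled fes1Δ, and GLC3 and GPH1 did in fes1ΔS. The GSY2 call in fes1ΔS was lost without any 1 of 5 libraries. None of the 5 trehalose genes passed the edgeR test of all 12 libraries in any comparison. TPS2 in fes1ΔS against WT was called under 3 alternatives, and TSL1 in fes1ΔS against fes1ΔL by a fit of these 2 strains alone. In fes1ΔL against WT none of the 10 passed. At an unadjusted edgeR p under 0.05, fes1ΔS against WT had 4 of the 5 trehalose and 4 of the 5 glycogen genes. The libraries labelled fes1Δ had 0 and 3. Over the 5719 tested genes the counts were 1193 in fes1ΔS and 1494 in the libraries labelled fes1Δ. Whether the trehalose and the glycogen genes differ was not tested. The largest fitted difference was that of GPH1 in fes1ΔS, 1.67-fold over WT.

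**Figure D1:**
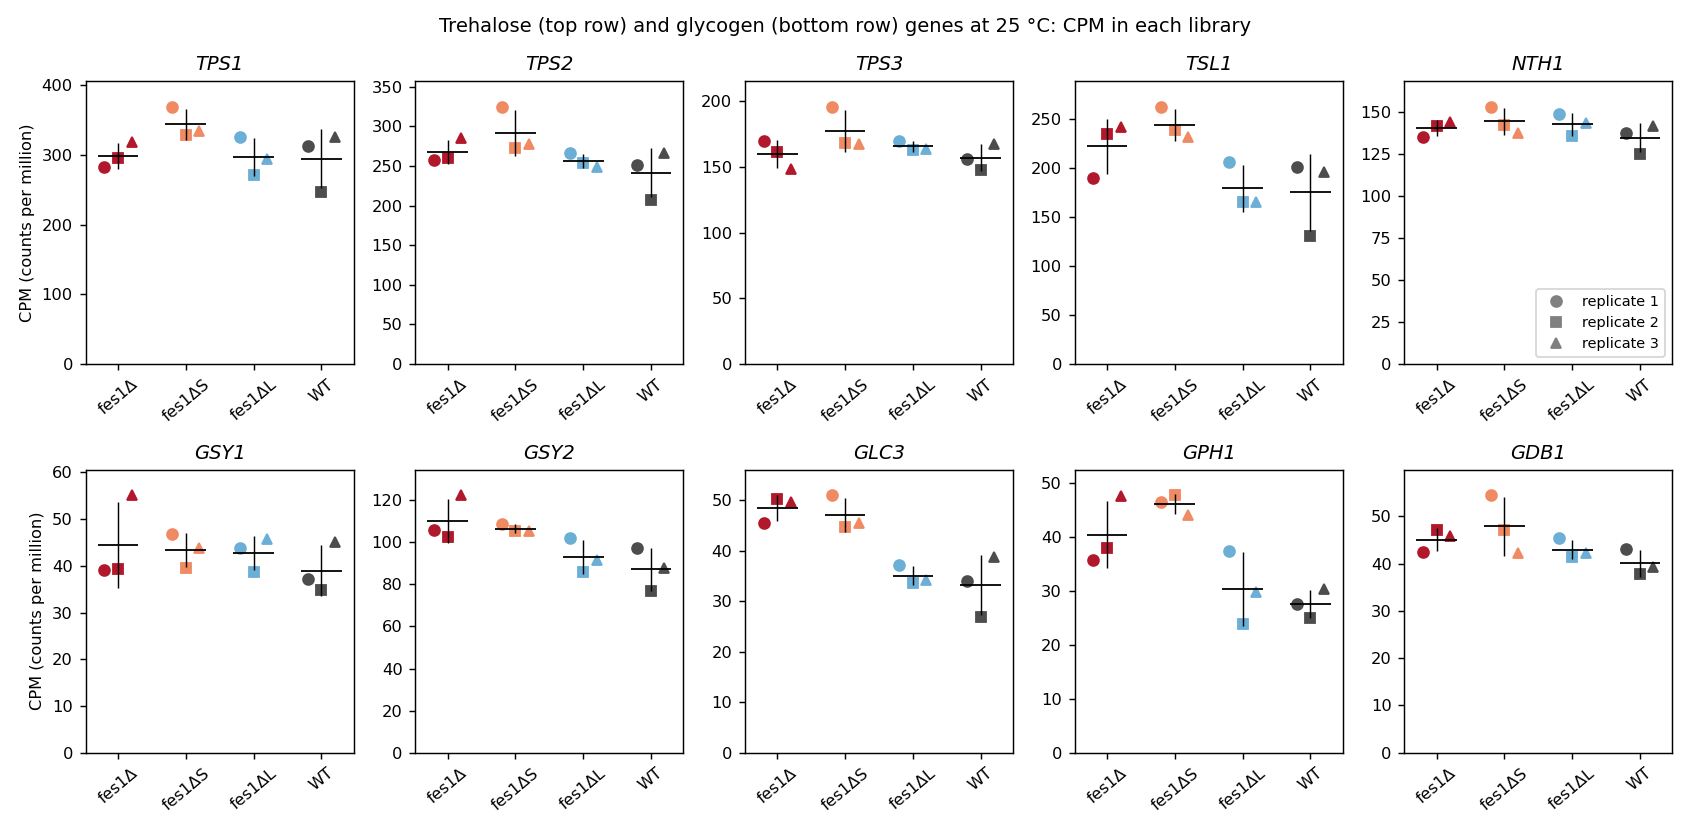
Each panel shows 1 gene, with CPM on the vertical axis from 0 and the strain on the horizontal axis (fes1Δ stands for the libraries so labelled). Points are single libraries with a shape for each replicate number, horizontal bars are means and vertical bars are ± 1 SD (n = 3). In the panels of GSY2, GLC3 and GPH1 the libraries labelled fes1Δ and those of fes1ΔS all lie above the WT libraries, and in most panels WT replicate 2 is the lowest point.

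GLC3 (YEL011W), the branching enzyme, had 45.4, 50.1 and 49.6 CPM in libraries labelled fes1Δ, 50.9, 44.7 and 45.5 CPM in fes1ΔS, 37.1, 33.7 and 34.2 CPM in fes1ΔL and 34.0, 26.8 and 38.7 CPM in WT. All 6 libraries of the first 2 strains lie above all 6 of the others. The log2 fold change over WT was 0.55 in the libraries labelled fes1Δ (SE 0.10, 95% interval 0.33 to 0.76, adjusted p = 0.00105) and 0.51 in fes1ΔS (SE 0.10, interval 0.30 to 0.72, adjusted p = 0.00268). In fes1ΔL it was 0.08 (interval -0.14 to 0.29). The fes1ΔS call was lost in the FPKM test (adjusted p = 0.0751). GLC3 also rose over fes1ΔL, by 0.47 in the libraries labelled fes1Δ (adjusted p = 0.00396) and by 0.43 in fes1ΔS (adjusted p = 0.0119). The call of the libraries labelled fes1Δ over WT held in all 12 alternative settings, leaving out any 1 of the 6 libraries among them.

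GPH1 (YPR160W), the phosphorylase that releases glucose 1-phosphate from glycogen, had 35.8, 38.0 and 47.5 CPM in libraries labelled fes1Δ, 46.6, 47.7 and 44.0 CPM in fes1ΔS, 37.5, 23.8 and 29.7 CPM in fes1ΔL and 27.5, 25.0 and 30.3 CPM in WT. The libraries of the first 2 strains lie above those of WT, while fes1ΔL replicate 1 lies between replicates 1 and 2 of the libraries labelled fes1Δ. The log2 fold change over WT was 0.55 in the libraries labelled fes1Δ (SE 0.14, interval 0.25 to 0.85, adjusted p = 0.0183) and 0.74 in fes1ΔS (SE 0.14, interval 0.45 to 1.04, adjusted p = 0.00295). The first of these calls ended without WT replicate 1 (adjusted p = 0.0721), WT replicate 2 (0.0685) or fes1Δ replicate 3 (0.0506). The second held in all 11 alternatives run. Over fes1ΔL, GPH1 rose by 0.60 in fes1ΔS (adjusted p = 0.0141) and stood 0.41 higher without a call in the libraries labelled fes1Δ (interval 0.12 to 0.71, adjusted p = 0.0772). The latter difference was called by DESeq2 (adjusted p = 0.0415) and by edgeR without fes1ΔL replicate 1 (0.00418).

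GSY2 (YLR258W), the major glycogen synthase, had 106, 102 and 122 CPM in libraries labelled fes1Δ, 108.8, 105 and 105 CPM in fes1ΔS, 102, 85.9 and 91.6 CPM in fes1ΔL and 97.2, 76.7 and 87.6 CPM in WT. Every library of the first 2 strains is above every WT library, by a narrow margin where WT replicate 1 is concerned. The log2 fold change over WT was 0.34 in the libraries labelled fes1Δ (SE 0.08, interval 0.16 to 0.51, adjusted p = 0.0115) and 0.29 in fes1ΔS (SE 0.08, interval 0.11 to 0.46, adjusted p = 0.0447). In the libraries labelled fes1Δ the call was lost without WT replicate 2 (0.25, adjusted p = 0.0515). In fes1ΔS it was lost without any 1 of 5 libraries, all but WT replicate 1 (adjusted p from 0.0989 to 0.169). Over fes1ΔL, GSY2 was not called, with 0.24 in the libraries labelled fes1Δ (adjusted p = 0.0759) and 0.19 in fes1ΔS (adjusted p = 0.254). Some alternatives did call it over fes1ΔL. In the libraries labelled fes1Δ these were the replicate block (adjusted p = 0.0376) and the fit without fes1ΔL replicate 1 (0.0374). In fes1ΔS it was the fit of the 2 strains alone (0.0452).

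The remaining glycogen genes did not pass the test. GSY1 (YFR015C), the minor synthase and a paralog of GSY2, had 39.1, 39.3 and 55.1 CPM in libraries labelled fes1Δ, 46.9, 39.6 and 43.9 CPM in fes1ΔS, 43.8, 38.7 and 45.7 CPM in fes1ΔL and 37.1, 34.8 and 45.0 CPM in WT. The strains overlap, and fes1Δ replicate 3 is the highest of the 12 libraries. Against WT, GSY1 had a log2 fold change of 0.19 in the libraries labelled fes1Δ (interval -0.09 to 0.46) and 0.16 in fes1ΔS (interval -0.11 to 0.44). The sources used here do not give how reads matching both synthase genes were counted.

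GDB1 (YPR184W), the debranching enzyme, had 42.4, 47.1 and 45.8 CPM in libraries labelled fes1Δ, 54.4, 47.1 and 42.1 CPM in fes1ΔS, 45.3, 41.5 and 42.1 CPM in fes1ΔL and 43.1, 37.7 and 39.3 CPM in WT. Its strains overlap as well. The log2 fold change over WT was 0.17 in the libraries labelled fes1Δ (adjusted p = 0.235) and 0.26 in fes1ΔS (interval 0.08 to 0.44, adjusted p = 0.0821). Without fes1ΔS replicate 3 it was called in fes1ΔS (0.34, adjusted p = 0.0292).

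Among the trehalose genes, TSL1 (YML100W), the large regulatory subunit, had the largest fitted differences of the libraries labelled fes1Δ and of fes1ΔS from WT. It had 190, 235 and 242 CPM in libraries labelled fes1Δ, 263, 239 and 231 CPM in fes1ΔS, 207, 166 and 165 CPM in fes1ΔL and 201, 130 and 196 CPM in WT. All fes1ΔS libraries lie above all WT libraries, but fes1Δ replicate 1 lies below 2 of the 3 WT libraries. The log2 fold change over WT was 0.34 in the libraries labelled fes1Δ (SE 0.17, interval -0.04 to 0.72, adjusted p = 0.244) and 0.48 in fes1ΔS (SE 0.17, interval 0.10 to 0.85, adjusted p = 0.142). Within WT its libraries had an SD of 39.3 CPM around a mean of 176 CPM. Against fes1ΔL, TSL1 in fes1ΔS was called by a fit of these 2 strains alone (0.45, adjusted p = 0.0250), not by the fit of all 12 libraries.

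TPS1 (YBR126C), the synthase, had 282, 296 and 319 CPM in libraries labelled fes1Δ, 369, 328 and 335 CPM in fes1ΔS, 326, 271 and 294 CPM in fes1ΔL and 312, 247 and 326 CPM in WT. The libraries labelled fes1Δ lie inside the WT range, and the lowest fes1ΔS library lies just above the highest WT one. The libraries labelled fes1Δ had a log2 fold change over WT of 0.02 (interval -0.18 to 0.22), and fes1ΔS one of 0.22 (interval 0.03 to 0.42, adjusted p = 0.177). TPS2 (YDR074W), the phosphatase, had 257, 260 and 286 CPM in libraries labelled fes1Δ, 325, 273 and 278 CPM in fes1ΔS, 266, 253 and 249 CPM in fes1ΔL and 251, 207 and 267 CPM in WT. Its fes1ΔS libraries are above those of WT, and the other strains overlap with WT. TPS2 came closest to a call in fes1ΔS, at 0.27 over WT (SE 0.08, interval 0.10 to 0.45, adjusted p = 0.0598), and was called there by DESeq2 (adjusted p = 0.0386), with a replicate block (0.0370) and without WT replicate 3 (0.0249). In the libraries labelled fes1Δ it stood at 0.15 (adjusted p = 0.287).

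TPS3 (YMR261C), the other regulatory subunit and a paralog of TSL1, had 170, 161 and 148 CPM in libraries labelled fes1Δ, 196, 168 and 167 CPM in fes1ΔS, 170, 163 and 164 CPM in fes1ΔL and 156, 148 and 168 CPM in WT. Only fes1ΔS replicate 1 stands clear of the other libraries. Its log2 fold change over WT was 0.02 in the libraries labelled fes1Δ and 0.17 in fes1ΔS (adjusted p = 0.153). NTH1 (YDR001C), the neutral trehalase, was the steadiest of the 10 in the comparison of fes1ΔS with WT. It had 135, 142 and 144 CPM in libraries labelled fes1Δ, 153, 143 and 138 CPM in fes1ΔS, 149, 136 and 144 CPM in fes1ΔL and 138, 125.2 and 142 CPM in WT. These strains overlap, and the libraries labelled fes1Δ had a log2 fold change over WT of 0.06 (interval -0.07 to 0.19), and fes1ΔS one of 0.10 (interval -0.03 to 0.23).

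**Figure D2:**
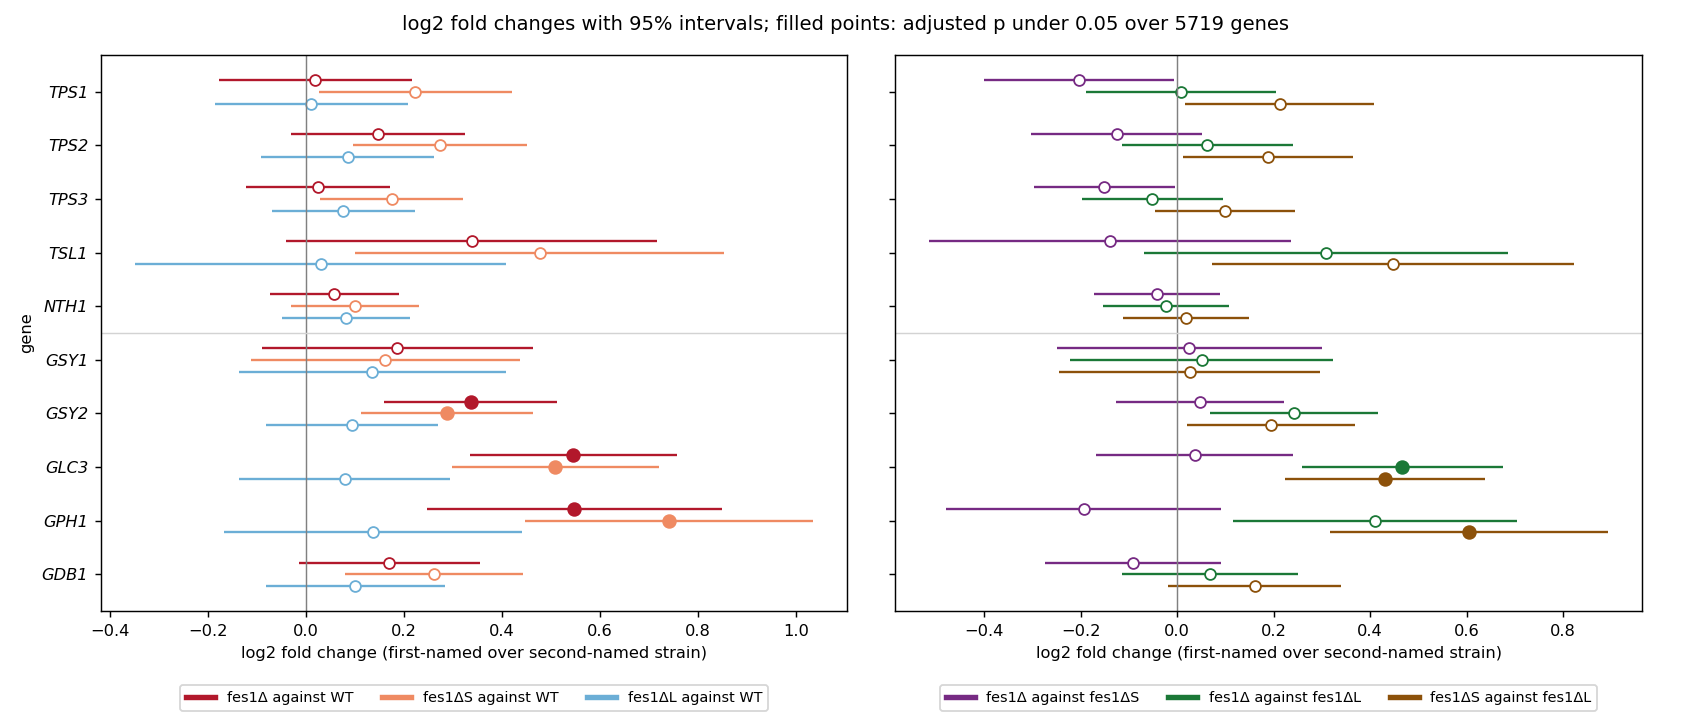
The horizontal axis is the log2 fold change of the first-named over the second-named strain, the rows are the 10 genes, bars are 95% intervals and filled points have an adjusted p under 0.05 over the 5719 genes tested (fes1Δ stands for the libraries so labelled). In the comparisons with WT, GSY2, GLC3 and GPH1 are filled for both fes1Δ and fes1ΔS against WT, and no fes1ΔL point is filled. Every interval of fes1Δ against fes1ΔS includes or lies close to 0.

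The counts can be read against all genes tested. In the libraries labelled fes1Δ against WT, 5.72% of the tested genes rose and 7.15% fell, beside 3 and 0 of the 10 storage genes. In fes1ΔS against WT 3.22% of the tested genes rose and 3.44% fell, beside 3 and 0 of the 10. In the libraries labelled fes1Δ all 10 genes had a positive log2 fold change over WT, with a median of 0.18, beside 0.00045 over all genes. In fes1ΔS all 10 were positive too, with a median of 0.27, beside -0.0033 over all genes. Both comparisons use the same 3 WT libraries, and WT replicate 2 was low for these genes. Without it, only GLC3 was called in the libraries labelled fes1Δ, and GLC3 and GPH1 in fes1ΔS. The genes are not independent of each other, since they vary together between libraries.

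In fes1ΔL against WT, 0.035% of the tested genes rose and 0.035% fell, and edgeR called 0 of the 10. At an unadjusted edgeR p under 0.05 there were also 0, beside 232 of the 5719 tested genes. DESeq2 called 0 of the 10, and the FPKM test 0 of the 5 that it holds. All 10 fitted values were positive and small, with a median of 0.08. Over all genes, 2806 of the 5719 were positive and the median was -0.0020. Without WT replicate 2 the values of TPS1, TPS2, TSL1 and GLC3 were negative. The intervals ran from -0.35 (TSL1) at the lowest to 0.44 (GPH1) at the highest, which corresponds to at most 1.36-fold.

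The libraries labelled fes1Δ were also compared directly with fes1ΔS, where 1.22% of the tested genes rose and 1.24% fell. None of the 10 was called by edgeR or DESeq2, nor any of the 5 that the FPKM test holds. By edgeR, 2 of the 10 had an unadjusted p under 0.05, beside 723 of the 5719 tested genes. These 2 were trehalose genes, TPS1 (-0.20, interval -0.40 to -0.0070) and TPS3 (-0.15, interval -0.30 to -0.0045), both lower in the libraries labelled fes1Δ. All 5 trehalose genes had negative log2 fold changes, down to -0.20. Negative too were 2 of the 5 glycogen genes, 28 of 30 other genes of the pathways (described below) and 2856 of the 5719 tested genes. For the 3 called glycogen genes the differences were 0.04 for GLC3 (interval -0.17 to 0.24), 0.05 for GSY2 (interval -0.13 to 0.22) and -0.19 for GPH1 (interval -0.48 to 0.09). HSP104 was higher in the libraries labelled fes1Δ by 0.46 (adjusted p = 0.000107). A call missed here does not show equal levels.

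Against fes1ΔL, fes1ΔS had 2 of the 10 genes higher, GLC3 and GPH1, beside 2.76% of the tested genes that rose and 2.06% that fell. This GLC3 call was lost without fes1ΔL replicate 2 or 3 or fes1ΔS replicate 1 and in the FPKM test (adjusted p from 0.0754 to 0.126). The GPH1 call was lost without any of these 3 libraries or fes1ΔS replicate 2 (0.0513 to 0.0891). The libraries labelled fes1Δ had 1 of the 10 higher than fes1ΔL, GLC3, beside 4.41% of the tested genes that rose and 5.11% that fell.

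The order of the strains by mean level can be given for the called genes. For GLC3 it was the libraries labelled fes1Δ (48.4 CPM), fes1ΔS (47.0), fes1ΔL (35.0) and WT (33.2), and only the step between fes1ΔS and fes1ΔL passed the test. For GPH1 it was fes1ΔS (46.1 CPM), the libraries labelled fes1Δ (40.4), fes1ΔL (30.3) and WT (27.6), and no step between neighbours passed. For GSY2 it was the libraries labelled fes1Δ (110 CPM), fes1ΔS (106), fes1ΔL (93.1) and WT (87.2), again with no called step between neighbours.

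Levels of different genes were compared only per length, with the deposited FPKM values, which are fragment counts scaled by gene length and library total and which can be used for 5 of the 10 genes. TPS1 was highest, at 179 ± 15.0 FPKM (SD, n = 3) in the libraries labelled fes1Δ, 206 ± 14.3 in fes1ΔS, 190 ± 18.2 in fes1ΔL and 187 ± 25.6 in WT. TPS2 had 83.7 ± 5.72 FPKM in the libraries labelled fes1Δ, 91.0 ± 8.46 in fes1ΔS, 86.1 ± 2.97 in fes1ΔL and 80.2 ± 10.5 in WT. NTH1 had 55.9 ± 3.15 FPKM in the libraries labelled fes1Δ, 58.2 ± 3.07 in fes1ΔS, 60.9 ± 2.38 in fes1ΔL and 57.3 ± 4.28 in WT. In every strain the libraries of TPS1, TPS2 and NTH1 stood clear of each other and of those of GSY1 and GLC3. GSY1 and GLC3 were close. GLC3 had 20.9 ± 1.46 FPKM in the libraries labelled fes1Δ, 20.3 ± 1.77 in fes1ΔS, 15.8 ± 1.18 in fes1ΔL and 15.3 ± 2.96 in WT. GSY1 had 18.2 ± 3.48 FPKM in the libraries labelled fes1Δ, 18.2 ± 1.72 in fes1ΔS, 18.9 ± 1.62 in fes1ΔL and 17.5 ± 2.44 in WT. GLC3 therefore lay above GSY1 in the libraries labelled fes1Δ and in fes1ΔS and below it in fes1ΔL and WT on means, and the ranges of the 2 genes overlapped in each of the 4 strains.

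The 10 genes also varied together within a strain. WT replicate 2 was the lowest WT library for 10 of the 10 genes, against 37.2% of all tested genes, and the lowest of all 12 libraries for 9 of the 10, against 8.88% of all tested genes. The exception was GPH1, lowest in fes1ΔL replicate 2. At the other end, fes1ΔS replicate 1 was the highest of the 12 libraries for 7 of the 10 genes, against 8.11% of all tested genes. After subtraction of strain means on the log2 CPM scale, the correlation of each gene with the mean of the other 9 over the 12 libraries lay between 0.42 (TPS3) and 0.98 (TPS1), with a median of 0.82. All 10 genes were read from the same 12 libraries, and 4 means were removed, so these values are a description. On average over the 10 genes, WT replicate 2 lay 0.19 below its strain mean (-0.19), against 0.07 and 0.12 above it for WT replicates 1 and 3. Over all genes the median deviation of WT replicate 2 was 0.00012. What set WT replicate 2 apart was not tested.

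**Figure D3:**
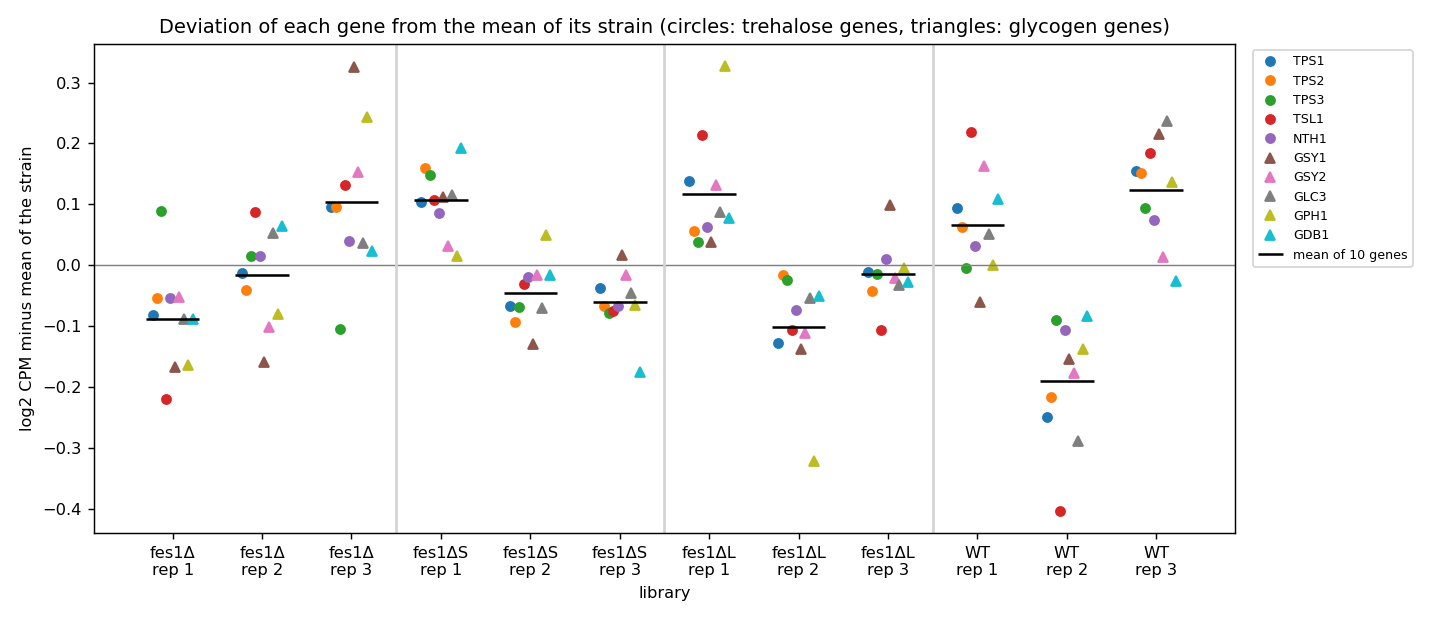
The vertical axis is log2 CPM minus the mean of the strain, the horizontal axis lists the 12 libraries (fes1Δ stands for those so labelled), each point is 1 gene and the black bar is the mean of the 10 genes. All 10 points of WT replicate 2 lie below 0, with TSL1 the lowest, and all 10 of fes1ΔS replicate 1 lie above 0.

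Of 30 other genes of the pathways, all tested, 3 rose and 1 fell in the libraries labelled fes1Δ against WT, and the other 26 were not called. Those 4 of 30 are close to the share over all tested genes, 5.72% up and 7.15% down. In fes1ΔS, 4 rose, none fell and 26 were not called, beside 3.22% up and 3.44% down over all tested genes. The median log2 fold change of the 30 was -0.0021 in the libraries labelled fes1Δ and 0.10 in fes1ΔS. In fes1ΔL against WT, 0.035% of tested genes were up and 0.035% down. There, none of the 30 was called by edgeR or DESeq2, nor any of the 17 that the FPKM test holds. By edgeR, 1 of the 30 had an unadjusted p under 0.05, beside 232 of the 5719 tested genes. That gene was RIM15 (log2 fold change 0.24, adjusted p = 0.513). Against fes1ΔL, HXK1 and GIP2 rose and PGM1 fell in the libraries labelled fes1Δ, beside 4.41% up and 5.11% down over all tested genes, and 6 of 12 alternatives kept the GIP2 call. In fes1ΔS, HXK1, UGP1 and EMI2 rose over fes1ΔL, beside 2.76% up and 2.06% down. The EMI2 call (adjusted p = 0.0448) was kept by 3 of 12 alternatives and lost without any 1 of the 6 libraries (adjusted p from 0.0543 to 0.204), and UGP1 kept its call in 9 of 11.

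The largest difference among these genes was that of HXK1, a hexokinase that phosphorylates glucose and fructose and is known to be repressed by glucose. It had 469, 519 and 590 CPM in libraries labelled fes1Δ, 640, 578 and 574 CPM in fes1ΔS, 295, 171 and 186 CPM in fes1ΔL and 320, 201 and 224 CPM in WT. The first 2 strains do not overlap with the others. HXK1 rose over WT by 1.08 in the libraries labelled fes1Δ (SE 0.23, interval 0.54 to 1.62, adjusted p = 0.0183) and by 1.27 in fes1ΔS (SE 0.24, interval 0.73 to 1.803, adjusted p = 0.0131). The first call ended without WT replicate 2 or WT replicate 3, with adjusted p of at most 0.0683, and the second without WT replicate 3 or fes1ΔS replicate 1, with adjusted p of at most 0.0555. HXK2, the main hexokinase of cells on glucose, averaged 1827 ± 110 CPM in libraries labelled fes1Δ and 2287 ± 145 CPM in fes1ΔS. Means of fes1ΔL (2014 ± 60.3 CPM) and WT (2020 ± 48.5 CPM) lay between these (SD, n = 3 each). HXK2 was the only 1 of the 30 called between the libraries labelled fes1Δ and fes1ΔS, beside 1.22% of all tested genes up and 1.24% down. The difference was -0.32 (SE 0.06, adjusted p = 0.00455), and the call held in all 12 alternatives. Against WT and fes1ΔL the edgeR fit of all 12 libraries did not call HXK2. DESeq2 called it higher in fes1ΔS than in both, and the FPKM test called it lower in the libraries labelled fes1Δ than in both.

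UGP1 makes UDP-glucose, the common precursor of both sugars. It had 439, 476 and 509 CPM in libraries labelled fes1Δ, 513, 498 and 501 CPM in fes1ΔS, 435, 397 and 408 CPM in fes1ΔL and 434, 400 and 411 CPM in WT. Libraries of the first 2 strains lie above those of WT. UGP1 rose over WT by 0.19 in the libraries labelled fes1Δ (SE 0.06, adjusted p = 0.0466), a call that 3 of 11 alternatives kept, and by 0.28 in fes1ΔS (SE 0.06, adjusted p = 0.00699), a call that all 11 kept. Of the phosphoglucomutases, which turn glucose 6-phosphate into glucose 1-phosphate, PGM1 fell by 0.29 in the libraries labelled fes1Δ (-0.29, SE 0.05, adjusted p = 0.00136), with 156 ± 7.90 CPM against 190 ± 4.95 CPM in WT (SD, n = 3 each). The major form PGM2 had 90.8 ± 9.16 CPM in libraries labelled fes1Δ, 93.5 ± 10.6 in fes1ΔS and 88.3 ± 15.0 in WT, and was not called.

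GIP2, PIG1 and GAC1 encode targeting subunits of the phosphatase Glc7, which activates glycogen synthase. In WT libraries GAC1 had 11 to 19 counts, GIP2 52 to 77 and PIG1 140 to 162. GIP2 rose by 0.59 in the libraries labelled fes1Δ (11.5 ± 2.26 CPM against 7.65 ± 1.70 CPM in WT, adjusted p = 0.0421), and 5 of 12 alternatives kept that call. PIG1 rose by 0.38 in fes1ΔS (22.1 ± 1.97 CPM against 17.0 ± 1.25 CPM in WT, adjusted p = 0.0295), and 6 of 11 kept it. GAC1 had 1.65 ± 0.22 CPM in libraries labelled fes1Δ, 1.75 ± 0.50 in fes1ΔS and 1.796 ± 0.49 in WT. At that depth its log2 interval against WT ran from -0.77 to 0.53 in the libraries labelled fes1Δ and from -0.64 to 0.63 in fes1ΔS. RIM15, a kinase of entry into quiescence, rose by 0.23 in fes1ΔS (78.4 ± 0.47 CPM against 67.0 ± 0.92 CPM in WT, adjusted p = 0.0293), a call that 5 of 12 alternatives kept. Its means in fes1ΔL (79.3 ± 4.23 CPM) and in the libraries labelled fes1Δ (75.7 ± 5.33 CPM) were above WT too, without a call by the fit of all 12 libraries. The glycogenins GLG1 and GLG2, which prime glycogen, and the trehalases NTH2 and ATH1 were not called in any comparison, and their log2 fold changes over WT lay between -0.07 (ATH1) and 0.13 (NTH2) in the libraries labelled fes1Δ and between 0.01 (ATH1) and 0.17 (NTH2) in fes1ΔS.

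**Figure D4:**
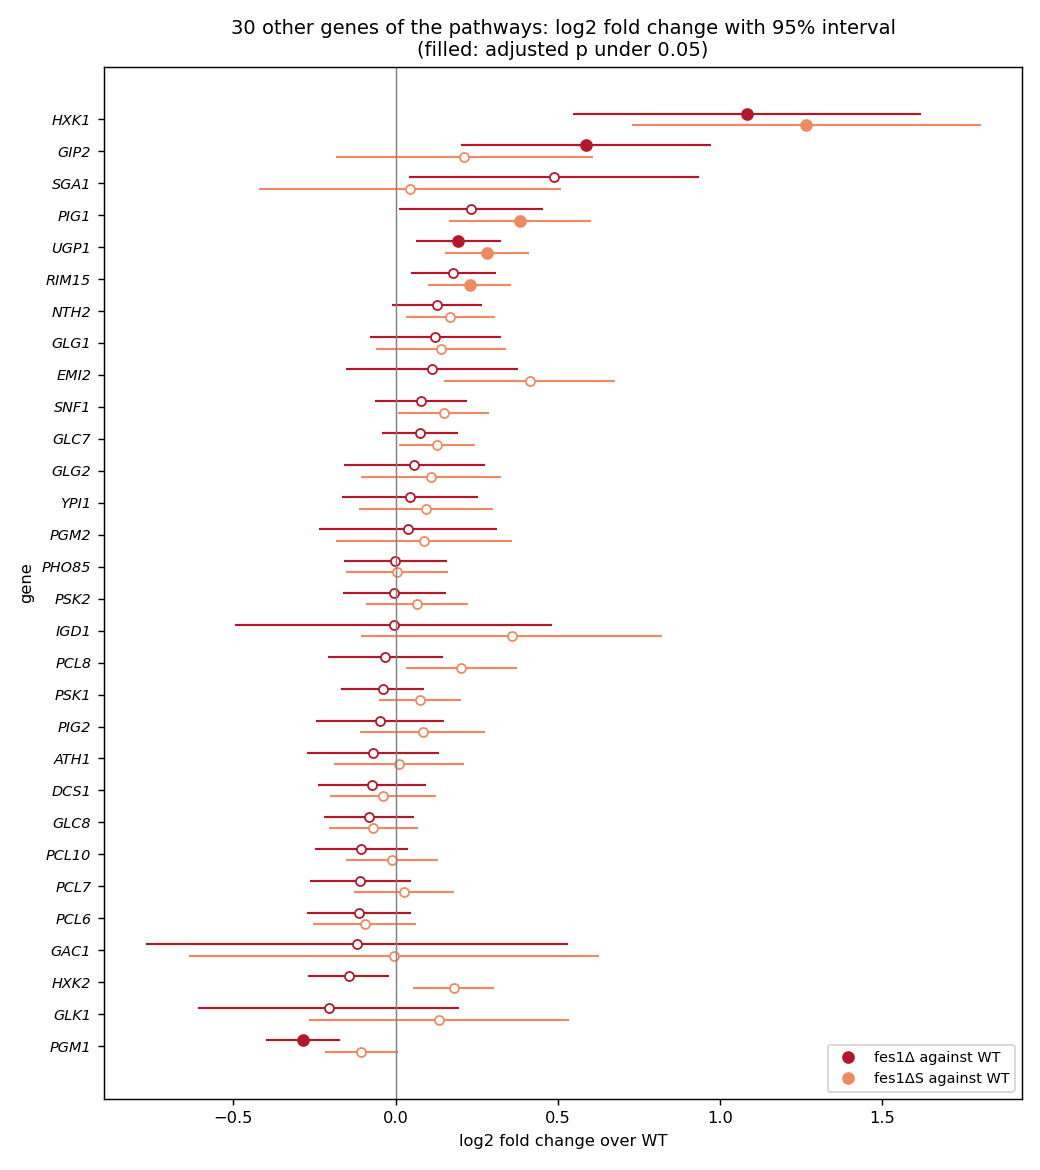
The horizontal axis is the log2 fold change over WT for the libraries labelled fes1Δ (dark) and for fes1ΔS (light), the rows are the 30 other genes of the pathways, bars are 95% intervals and filled points have an adjusted p under 0.05. HXK1 stands apart at 1.08 and 1.27, PGM1 is the only filled point below 0, and 26 genes of each comparison are open points.

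The genes outside these lists whose level followed the 10 most closely were YAP1801, YGR130C, BIO5, YAK1 and RTC3. Their log2 CPM had Pearson correlations of 0.93, 0.90, 0.88, 0.87 and 0.87 with the mean standardized profile of the 10, over 12 libraries and among 5679 genes ranked. The 12 libraries come from only 4 strains, so these values only describe likeness. RTC3 had 71.0 CPM in libraries labelled fes1Δ, 79.9 in fes1ΔS, 39.4 in fes1ΔL and 41.9 in WT on average, while YAP1801 had 98.3 CPM in libraries labelled fes1Δ, 105 in fes1ΔS, 89.5 in fes1ΔL and 91.1 in WT. BIO5 was at a low level, with 1.28 CPM in the libraries labelled fes1Δ and 0.899 in WT.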

How the data were processed

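Libraries were poly(A)-selected and strand-marked, per the labels' protocols. The authors deposited whole-number counts per gene without normalization and, in a further table, FPKM values. The submitters' processing notes name TopHat2 2.0.4, HTSeq 0.6.1, Cufflinks 2.1.1 and build sacCer2, without roles. The sources used here do not say whether counting used strand. No sequences or coordinates are shown, since the genome used for gene names (R64) is another build. In 2 tables, 12 columns (6 in each) matched no label and were not used. In the FPKM table, 3501 genes hold 24 values for 12 column names and were left out, and 3629 genes hold 1 value per library.

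Counts of all 12 libraries were fitted in R 4.3.3 with edgeR 4.0.16, using its robust quasi-likelihood F test, TMM, the default expression filter and strain as the only term. Benjamini-Hochberg adjustment of p-values ran over 5719 genes, separately for each of 6 comparisons, and an adjusted p under 0.05 is a call. Levels are CPM with TMM-scaled library sizes, where 3 counts correspond to 0.302 to 0.403 CPM. The standard error comes from the F statistic. "Rose" and "fell" are used of calls.

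Alternatives were RLE size factors, no filter, DESeq2 1.42.0, only the 2 strains compared, a replicate block, limma 3.58.1 on log2(FPKM + 1) where the mean FPKM reached 1, and each library left out in turn. The scripts were tested on simulated data. Counts of same-strain libraries differed beyond sampling noise in all 12 pairs (chi-square divided by its degrees of freedom, 2.60 to 14.7). These values do not show that the cultures were separate. Each library, from its own RNA isolation, was counted as 1 sample. The p-values of the main edgeR fit rest on the spread between libraries, pooled over the 4 strains and shared in part between genes. Genes named are the 10, those of the other 30 that were called in the fes1Δ or fes1ΔS comparison with WT, PGM2, UGP1, GLG1, GLG2, NTH2, ATH1 and GAC1, and the 5 most alike in profile. HXK2, EMI2 and PCL10 were named after their values were seen. The gene set and the lists were chosen with earlier results of these data known. IGD1 was named through the RefSeq table of build R64.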

Additional observations from a re-analysis of the deposited data

How the results depend on the processing

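Of 690 values of the 10 genes under alternative settings, 627 kept their direction and their side of the threshold, 19 lost a call, 10 gained one and 34 changed sign. Without one library, the values that changed sign ranged, against WT in the libraries labelled fes1Δ, from -0.10 to 0.10 (TPS1) and -0.022 to 0.074 (TPS3), and in fes1ΔL from -0.11 to 0.088 (TPS1), -0.019 to 0.16 (TPS2), -0.15 to 0.14 (TSL1), -0.056 to 0.20 (GLC3) and -0.044 to 0.28 (GPH1). For the libraries labelled fes1Δ against fes1ΔS the ranges were -0.075 to 0.0027 (NTH1), -0.15 to 0.11 (GSY1), -0.032 to 0.10 (GSY2) and -0.17 to 0.014 (GDB1), for fes1ΔS against fes1ΔL -0.027 to 0.051 (NTH1) and -0.044 to 0.088 (GSY1), and for the libraries labelled fes1Δ against fes1ΔL -0.052 to 0.085 (TPS1), -0.058 to 0.013 (NTH1) and -0.13 to 0.14 (GSY1). On FPKM, TPS1 stood at -0.055 and NTH1 at -0.036 in the libraries labelled fes1Δ against WT, GSY1 at -0.0080 in these against fes1ΔS, NTH1 at -0.065 and GSY1 at -0.055 in fes1ΔS against fes1ΔL, and TPS1 at -0.087, TPS2 at -0.042 and GSY1 at -0.063 in the libraries labelled fes1Δ against fes1ΔL. None of these was called in either setting. The FPKM test holds 5 of the 10 genes and 17 of the other 30, so fewer calls follow in part from its construction. The cause of the other changes was not tested.

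Of the 10, without one library 1 to 3 were called in the libraries labelled fes1Δ against WT (1 without WT replicate 2), 2 to 3 in fes1ΔS against WT, 0 to 2 in fes1ΔS against fes1ΔL and 1 to 3 in the libraries labelled fes1Δ against fes1ΔL, and 0 in the other 2 comparisons. On FPKM, 1 was called in the libraries labelled fes1Δ against WT and 0 in fes1ΔS against WT and against fes1ΔL. A fit of the 2 strains alone called 4 in fes1ΔS against fes1ΔL (TSL1 and GSY2 added). For the libraries labelled fes1Δ against fes1ΔL, 1 by the edgeR fit, DESeq2 called 2, the replicate block 2 and FPKM 0.

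Of the 30 other genes, without one library 1 to 4 were called in the libraries labelled fes1Δ and 1 to 3 in fes1ΔS against WT, 1 to 2 in the libraries labelled fes1Δ against fes1ΔS, 1 to 2 in fes1ΔS and 2 to 5 in the libraries labelled fes1Δ against fes1ΔL. In the libraries labelled fes1Δ against WT, a fit of the 2 strains alone and the replicate block each called 2, against fes1ΔS the fit of the 2 strains called 2, and FPKM called 1 in fes1ΔS against WT and 1 against fes1ΔL. For the libraries labelled fes1Δ against WT, FPKM called 3 of the 17 genes it holds, beside 441 of all 2819. HXK1 was higher and HXK2 and PCL10 were lower. PGM1 and UGP1 are not among the 17, and GIP2 was not called there.

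Over all genes, 736 were called in the libraries labelled fes1Δ against WT (486 to 1051 without one library, 466 in a fit of the 2 strains, 441 of 2819 on FPKM), 381 in fes1ΔS against WT (251 to 410; 208 on FPKM), 4 in fes1ΔL against WT (3 to 5; 10 in a fit of the 2 strains), 141 between the libraries labelled fes1Δ and fes1ΔS (59 to 128; 40 on FPKM), 276 in fes1ΔS against fes1ΔL (185 to 221; 464 in a fit of the 2 strains) and 544 in the libraries labelled fes1Δ against fes1ΔL (354 to 576). On FPKM the median of the 5 genes was 0.05 in the libraries labelled fes1Δ and 0.15 in fes1ΔS against WT, and -0.06 in the libraries labelled fes1Δ against fes1ΔL. The alternatives for the median of the 10 genes and for the fold changes of single genes among the other 30 were chosen after seeing the data.

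The numbers in the titles are not stated to pair libraries, and of 18 same-numbered pairs 4 had deviations from their strain means correlated above 0.1 (r from -0.19 to 0.29), so the replicate block is a check only. The planned search for a stress element in promoters was not run. The lowest count of the 10 in any library was 222.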
